A study of Mus musculus with 2 samples.

Results

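The genes described here are 10 genes of simple epithelium, chosen by symbol from the 20634 genes listed for whole mouse uterus on gestational day 4. They comprise the simple epithelial keratins Krt7, Krt8, Krt18 and Krt19, the adhesion molecule Epcam, the splicing regulators Esrp1 and Esrp2, and the transcription factors Grhl2, Ehf and Elf3. All 10 were found in both tables. Pregnant females aged 6 to 8 weeks, mated with fertile males, were killed on day 4, counting the day of the vaginal plug as day 1. RNA-seq gave 2 libraries, one with the genotype Mettl3 f/f and the other Mettl3 ed/ed, shortened to f/f and ed/ed here. The labels do not give the meaning of the genotype letters, what drives the change at Mettl3, or how many animals each library holds. Mettl3 encodes the catalytic subunit of the complex that writes N6-methyladenosine on RNA.

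Keratins are the intermediate filaments of epithelial cells, and each filament pairs a type I with a type II chain. In simple epithelia such as the lining and glands of the uterus, Krt8 and Krt7 are the type II chains and Krt18 and Krt19 the type I chains. Epcam is a cell-surface glycoprotein of epithelial cells that associates with claudin 7. Esrp1 and Esrp2 direct the splicing of transcripts into their epithelial isoforms, Grhl2 is a Grainyhead factor that maintains genes of epithelial junctions, and Ehf and Elf3 are Ets factors with expression largely restricted to epithelia. The epithelium of the receptive uterus loses part of its polarity and remodels its junctions before the blastocyst attaches.

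Values are FPKM, fragment numbers scaled for the length of the transcript and for how many fragments were mapped. Estimated depth was 18300000 fragments for f/f against 17400000 for ed/ed, and the listed values summed to 522049 and 491403 FPKM. Mettl3 itself was at 10.6 FPKM for f/f against 10.2 for ed/ed, so its level does not tell the libraries apart and every direction rests on their labels. With 1 library per genotype there is no replicate check and no test. Every difference below is between these 2 libraries, and where 2 values are given together the f/f value comes first. The word called marks a difference of 2-fold or more on the scale of log2(FPKM + 1), which understates differences of low genes. The comparison took genes that reached 1 FPKM in at least 1 library, and the median log2 ratio of ed/ed over f/f across these 12165 genes was -0.26. Counting intervals are 95% intervals of the FPKM ratio from estimated fragment numbers and cover counting error only.

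The 10 genes passed the filter on low values, and 0 of the 10 differed 2-fold, where 8.9% of all genes did (2.68% higher and 6.22% lower). Elf3, Epcam and Krt7 were higher in ed/ed, and the other 7 were lower, at 57.2% to 75.1% of their f/f level. These signs were kept under 4 other scalings of the libraries and after removal of a trend with transcript length. In those settings 387 to 636 of all genes were called higher and 347 to 608 lower, against 326 and 757 as deposited. A ratio below 0 was also found in 70.4% of all genes, and 7 of the 10 were under the median ratio of all genes, where 50% are by construction. The median log2 ratio of the 10 genes was -0.43, which is -0.17 from the median of all genes, within the middle 50% of all genes (-0.56 to 0.07). In rank of abundance among the 20634 genes, Krt8 was 162 in f/f and 209 in ed/ed, Krt19 180 and 281, Epcam 524 and 332, and Elf3 918 and 436, so that these keratins stood lower in the order in ed/ed and Epcam and Elf3 higher. At the looser rule of 1.5-fold, Elf3 was higher (7.04% of all genes were) and Krt19 was lower (23.4% were).

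**Figure D1:**
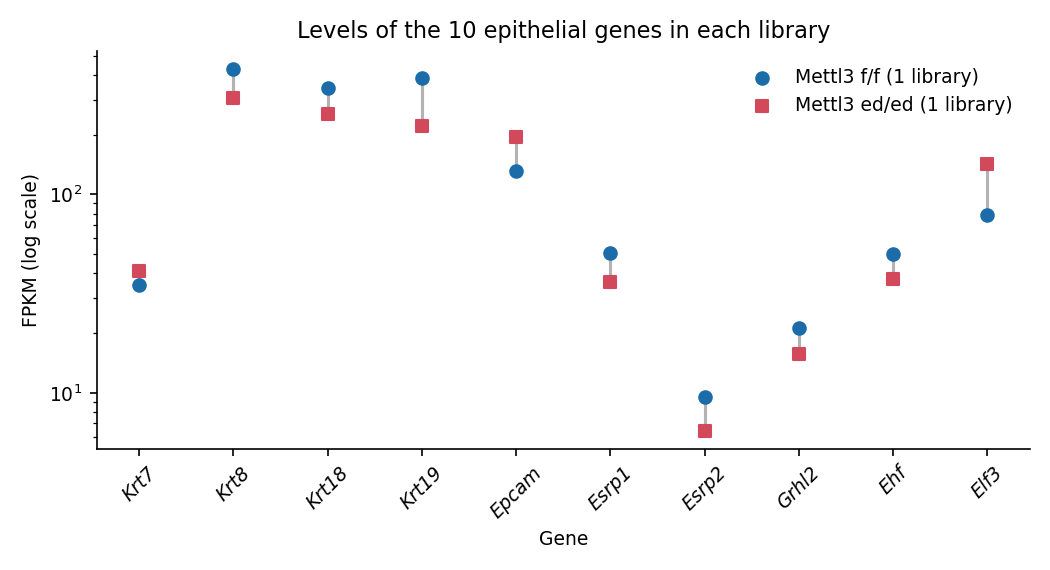
FPKM of each gene (log axis) in the single f/f library (circles) and the single ed/ed library (squares), joined by a line. Krt8, Krt18 and Krt19 are the most abundant in both, and only Krt7, Epcam and Elf3 have the square above the circle.

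Among keratins, Krt8, Krt18 and Krt19 were abundant and lower in ed/ed, whereas the scarcer Krt7 was higher. Krt8 (ENSMUSG00000049382, chromosome 15, 101996698 to 102004482, minus strand, GRCm38), the main type II chain, was at 429.6 FPKM for f/f against 307 for ed/ed. Krt18 (ENSMUSG00000023043, chromosome 15, 102028180 to 102032027, plus strand), its type I partner, was at 345 and 254 FPKM. Both were thus lower in ed/ed by a like amount, with log2 ratios of -0.48 (counting interval -0.52 to -0.45) and -0.44 (-0.49 to -0.39). The genes lie next to each other and are transcribed away from each other, with starts 23698 bp apart and 0 coding genes between them. Within a library the ratio of Krt8 to Krt18 does not depend on scaling, and it was 1.25 for f/f against 1.21 for ed/ed. The log2 difference of these ratios was -0.04 with a counting interval of -0.11 to 0.02, which includes 0.

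Krt19 (ENSMUSG00000020911, chromosome 11, 100140810 to 100148665), a small type I keratin with almost no tail domain, was at 388 FPKM for f/f against 222 for ed/ed. Its log2 ratio of -0.80 (counting interval -0.86 to -0.76) was the lowest of the 10 genes, at percentile 11.5 among all genes compared. Krt19 was therefore also lower relative to the other type I chain, with a ratio of Krt19 to Krt18 of 1.12 for f/f against 0.873 for ed/ed (log2 difference -0.36, counting interval -0.44 to -0.29). In f/f Krt19 ranked above Krt18 in abundance, and in ed/ed below it.

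Krt7 (ENSMUSG00000023039, chromosome 15, 101411043 to 101430313), a type II chain of glandular and ductal epithelia, was at 34.8 FPKM for f/f against 41.1 for ed/ed. Its log2 ratio was 0.23 (counting interval 0.16 to 0.32) as deposited, 0.32 to 0.55 under the 4 other scalings and 0.53 without the length trend. Relative to Krt8, its fellow type II chain, Krt7 was 1.65-fold higher in ed/ed, with a ratio of 0.0810 for f/f against 0.134 for ed/ed. Krt7 lies in the same keratin cluster as Krt8, with starts 593439 bp apart and 25 coding genes between them, and differed in the opposite direction.

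Simple keratins made up nearly all keratin transcript in both libraries. Krt7, Krt8, Krt18 and Krt19 held 98.7% of the summed FPKM of 54 keratin genes for f/f against 98.8% for ed/ed, and their own sum was 1198 and 824 FPKM. Within the keratin sum, Krt8 held 35.4% for f/f against 36.8% for ed/ed, and Krt18 held 28.5% and 30.4%. Krt19 held 32.0% and 26.6%, and Krt7 held 2.87% and 4.93%. The make-up of the keratin sum thus differed mainly in a smaller share of Krt19 in ed/ed. Summed type I keratins stood to summed type II keratins as 1.59 for f/f against 1.37 for ed/ed. Of the 50 other keratin genes only 3 reached 1 FPKM, Krt10, Krt23 and Krt80, and all 3 were lower in ed/ed, within 2-fold. Krt10, a keratin of suprabasal epidermis, was at 4.13 and 2.14 FPKM, Krt23 at 3.94 and 2.60 and Krt80 at 3.17 and 1.93.

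Read assignment limits these values. Krt8 has a processed pseudogene, Krt8-ps, with 98.6% identity over 941 nt, and Krt18 has Gm5200, with 90.5% identity over 1267 nt. Stretches of at least 100 nt in the longest coding transcript of Krt7 resemble transcripts of 94 other genes at 90% identity or more. They are short parts of its 4094 nt, such as 179 nt shared with Gmcl1, and not copies of the whole gene. How reads shared with any of these sequences were counted is not stated by the labels. A further limit is that 6 of the 10 genes (Krt7, Krt8, Esrp1, Esrp2, Grhl2 and Elf3) overlap an annotated gene on the opposite strand, and without strand their reads cannot be told apart. Only 1 of these partners is in the tables, Nfatc3, which overlaps Esrp2 and was at 15.1 and 11.6 FPKM.

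Epcam and Elf3 stood apart from the rest on the higher side. Epcam (ENSMUSG00000045394, chromosome 17, 87635979 to 87651129) was at 131 FPKM for f/f against 194 for ed/ed, 1.48-fold higher, with a log2 ratio of 0.56 (counting interval 0.51 to 0.62). It was at percentile 92.5 of all genes compared. Elf3 (ENSMUSG00000003051, chromosome 1, 135253575 to 135258568) was at 78.4 and 142 FPKM, 1.81-fold higher, with a log2 ratio of 0.85 (0.79 to 0.93) and at percentile 96.3. Elf3 passed 2-fold under 3 of the 4 other scalings and after removal of the length trend, with log2 ratios of 1.04 to 1.17. In these settings 506 to 636 of all genes were called higher, against 326 as deposited.

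The sequences before the starts of Epcam and Elf3 (both higher in ed/ed) and of Krt8 and Krt18 (neighbours lower by a like amount) are shown, from RefSeq on GRCm38.p6, to set the higher genes beside the lower ones. A window was found for 5 of the 10 genes. Each sequence is written 5′ to 3′ on the strand of the gene. It starts 250 bases before the RefSeq start and stops before the first base of the gene in GENCODE, so its length differs between genes. Capitals mark matches on either strand to the Grainyhead core ACCGGT, the Ets core AGGAAG and the E-box CACCTG, which Zeb and Snail factors bind. These letters were chosen with the sequences in view.
Epcam, chr17:87635729-87635978, plus strand: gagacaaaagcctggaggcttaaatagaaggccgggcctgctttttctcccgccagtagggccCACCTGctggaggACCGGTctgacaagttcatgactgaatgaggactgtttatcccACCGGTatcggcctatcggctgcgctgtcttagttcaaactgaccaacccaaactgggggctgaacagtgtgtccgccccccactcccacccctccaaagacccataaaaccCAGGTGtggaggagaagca
Elf3, chr1:135258569-135258722, minus strand: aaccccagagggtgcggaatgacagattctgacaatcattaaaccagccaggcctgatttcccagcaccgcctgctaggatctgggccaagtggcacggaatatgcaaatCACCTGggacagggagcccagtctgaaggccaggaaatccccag
Krt8, chr15:102004483-102004592, minus strand: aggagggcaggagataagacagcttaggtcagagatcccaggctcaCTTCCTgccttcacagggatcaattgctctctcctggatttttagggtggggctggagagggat
Krt18, chr15:102027966-102028179, plus strand: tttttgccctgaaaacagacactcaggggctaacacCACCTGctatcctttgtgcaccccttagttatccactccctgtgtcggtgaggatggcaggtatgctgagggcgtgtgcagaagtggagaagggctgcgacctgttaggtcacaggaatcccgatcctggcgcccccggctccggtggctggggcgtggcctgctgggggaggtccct

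In the full 250-base windows, the Grainyhead core occurred 2 times before Epcam, at bases 174 to 169 and 131 to 126 before the RefSeq start, and not before Elf3, Krt7, Krt8 or Krt18. The core was present in 1.86% of 32851 windows of the same length. The E-box letters occurred in the windows of all 5 genes, 2 times before Epcam and 1 time before each of the others, against 17.2% of all windows. The Krt8 match, at bases 111 to 106, lies beyond the end of the printed stretch. The Ets core occurred 1 time before Krt8 and 1 time before Krt7, against 29.5% of all windows. The Krt7 window lies wholly past the GENCODE start of the gene, so none of it is printed and its matches precede the RefSeq start only. In the printed stretches Epcam, Elf3 and Krt18 thus carry the E-box letters, and Krt8 carries them only past its GENCODE start. Because the letters were chosen with these sequences in view, the shares over all windows do not test for enrichment. A match is a description of letters and not of binding.

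The splicing regulators were both lower in ed/ed by a like amount. Esrp1 (ENSMUSG00000040728, chromosome 4, 11331933 to 11386783) was at 50.4 FPKM for f/f against 36.3 for ed/ed, with a log2 ratio of -0.46 (counting interval -0.55 to -0.40). Esrp2 (ENSMUSG00000084128, chromosome 8, 106130319 to 106136974) was the lowest of the 10 genes in level, at 9.55 and 6.45 FPKM, with a log2 ratio of -0.50 (interval of the FPKM ratio -0.76 to -0.37). Esrp1 was the more abundant paralog in both libraries, at 5.28 times Esrp2 in f/f and 5.62 times in ed/ed. The log2 difference of these ratios was 0.09 with a counting interval of -0.11 to 0.29, which includes 0. Of 11 other splicing regulators compared, 0 were called higher and 0 lower, with a median log2 ratio of -0.24 that turned positive (0.06 and 0.08) under 2 of the 4 other scalings. Rbm47, an RNA-binding protein of epithelia, was at 10.3 and 19.5 FPKM and was called higher under 3 of the 4 other scalings (1 gene of the list was without the length trend), whereas Mbnl2, a muscleblind factor, was at 32.1 and 18.5.

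The transcription factors differed in direction. Grhl2 (ENSMUSG00000022286, chromosome 15, 37233036 to 37363569) was at 21.2 FPKM for f/f against 15.7 for ed/ed, with a log2 ratio of -0.41 (counting interval -0.54 to -0.33). Ehf (ENSMUSG00000012350, chromosome 2, 103263433 to 103303278) was at 50.2 and 37.6 FPKM, with a log2 ratio of -0.40 (-0.48 to -0.34). Ehf and Elf3 belong to the same Ets subfamily and differed in opposite directions, with a ratio of Ehf to Elf3 of 0.640 for f/f against 0.264 for ed/ed. That is a 2.42-fold difference, the largest of the 5 pairs of genes set against each other by family, with a log2 difference of -1.27 (counting interval -1.37 to -1.18).

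**Figure D2:**
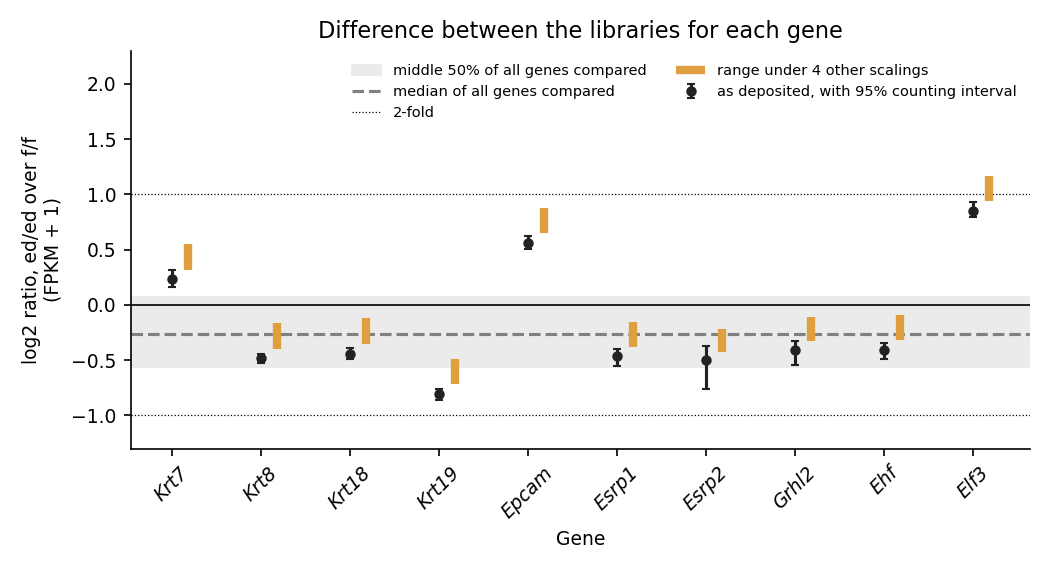
Log2 ratio of ed/ed over f/f for each gene as deposited (points, on FPKM + 1) with the 95% counting interval of the FPKM ratio, and its range under 4 other scalings (orange bars). The dashed line and grey band are the median and middle 50% of all genes compared, and 6 of the 10 genes lie together between -0.50 and -0.40.

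A set of 6 genes, Krt8, Krt18, Esrp1, Esrp2, Grhl2 and Ehf, had log2 ratios from -0.50 to -0.40, and their levels spanned 9.55 to 429.6 FPKM in f/f. The width of this range depends on the setting. Without a pseudocount it was -0.57 to -0.41, and without the length trend -0.32 to -0.07. The set was seen after the values were known. Set against the median of all genes, the 6 were lower by at most 0.24 on the log2 scale, and under the scaling by reference genes they lay between -0.22 and -0.09. Their percentiles among all genes compared were 29.3 to 37.1, so that each was within the middle 50%.

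**Figure D3:**
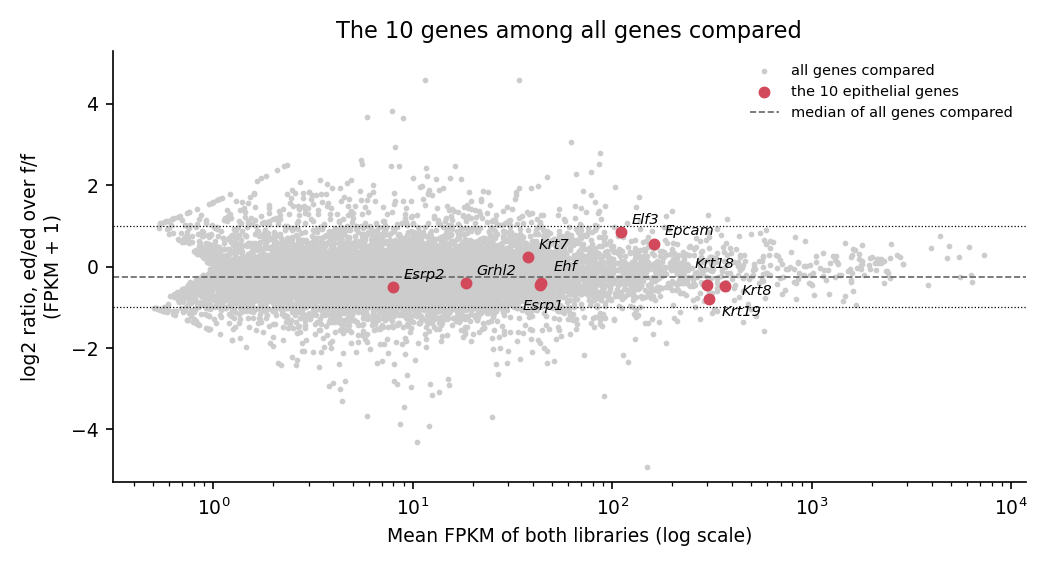
Log2 ratio of ed/ed over f/f against the mean FPKM of both libraries (log axis) for 12165 genes (grey), with the 10 epithelial genes in red. Elf3 and Epcam lie in the upper part of the cloud at their level and Krt19 in its lower part, and 0 of the 10 pass the dotted 2-fold lines.

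Set against Cdh1, the E-cadherin of epithelial adherens junctions, most members were lower in ed/ed and Epcam was not. Cdh1 was at 151 FPKM for f/f against 228 for ed/ed, and the ratio of Epcam to it was 0.868 for f/f against 0.852 for ed/ed (log2 difference -0.03, counting interval -0.09 to 0.04, which includes 0). Krt8 was at 2.85 times Cdh1 in f/f and 1.35 times in ed/ed. Krt19 was at 2.57 times Cdh1 in f/f and 0.974 times in ed/ed. The 7 lower members had 2.01-fold (Ehf) to 2.64-fold (Krt19) lower ratios to Cdh1 in ed/ed. Krt7 had a ratio of 0.230 for f/f against 0.181 for ed/ed, and Elf3 of 0.519 and 0.626. These ratios share Cdh1 as the denominator and are not independent of each other. Cdh1 itself had a log2 ratio of 0.59, 0.85 above the median of all genes. Part of the 2.01-fold to 2.64-fold differences therefore comes from Cdh1, and none of the 7 differed 2-fold by itself.

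**Figure D4:**
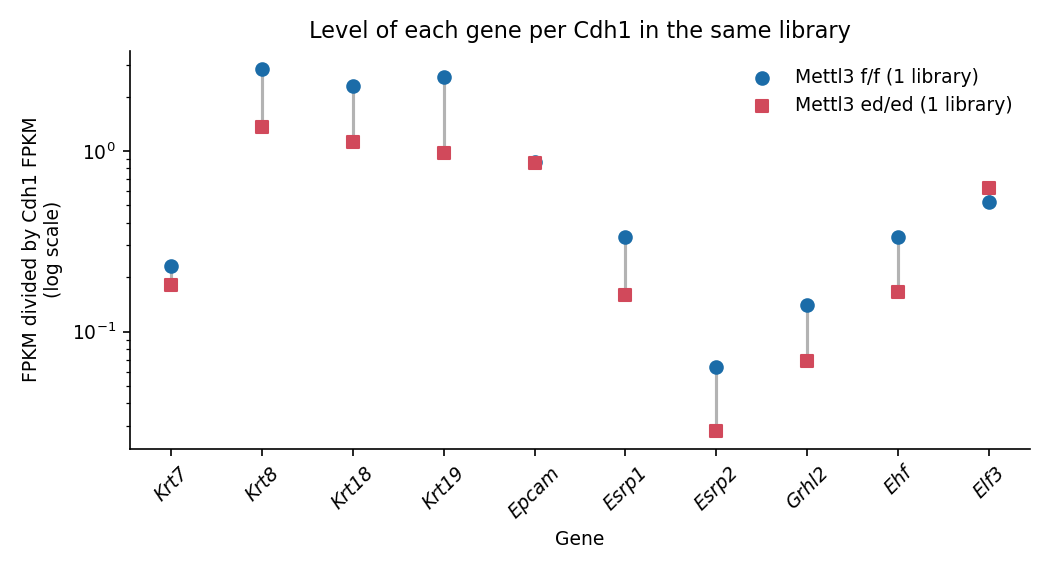
FPKM of each gene divided by that of Cdh1 in the same library (log axis), for f/f (circles) and ed/ed (squares). The marks of Epcam coincide near 0.86, Elf3 is higher in ed/ed, and the other 8 genes are lower.

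Genes that work with the members were described from 9 lists, which share some genes. Of the 97 genes compared in them, 2 were called higher and 6 lower, where 2.68% and 6.22% of all genes were. The 2 called higher, Foxa2 and Sox9, were under 1 FPKM in f/f and passed the filter through ed/ed only. Junction and adhesion genes of epithelium had a median log2 ratio of 0.02 over 23 genes, 0.28 above the median of all genes, with 0 called higher and 0 lower. Cldn7, the claudin that binds Epcam, was at 232 FPKM for f/f against 437 for ed/ed. Cldn3, the most abundant, was at 967 and 997 FPKM, and Crb3, a polarity protein, at 40.6 and 62.1. Marveld3, of tricellular and bicellular tight junctions, went the other way, at 9.25 and 5.54 FPKM. Junction genes were therefore spread over both directions, with 13 above 0 and 10 below. Under each of the 4 other scalings 1 of the 23 was called higher.

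Genes that anchor keratin filaments to desmosomes and hemidesmosomes were evenly split, with 7 of 14 above the median of all genes and 7 below. Periplakin Ppl, which links keratins to the cell cortex, was the only one called, at 36.0 FPKM for f/f against 13.6 for ed/ed. Plakoglobin Jup was at 43.4 and 22.4 FPKM, and desmoplakin Dsp, to which keratins attach, at 16.0 and 8.51. Desmocollin Dsc2 was at 1.02 and 2.51 FPKM. Without the length trend Ppl was no longer past 2-fold, with 0 genes of this list called lower and 1 higher.

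Of 11 partners and proteases of Epcam, 0 were called higher and 2 lower, with a median log2 ratio of 0.14. The matriptase gene St14, whose protease cleaves Epcam, was at 51.4 FPKM for f/f against 100.03 for ed/ed, within 2-fold, and its inhibitor Spint2 was the most abundant, at 349 and 383. Cd44 was at 21.1 and 9.79 FPKM and the secretase gene Bace1 at 3.59 and 0.961, and these 2 were called lower. Once the length trend was removed, 2 of the 11 were called higher and 0 lower, and the other scalings gave 2 or 3 higher and 1 lower.

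Genes known as targets of Grainyhead factors, with Epcam and Esrp1 left out as members, were mostly higher in ed/ed. Of 13 compared, 11 had a log2 ratio above 0 and 2 below, where 70.4% of all genes were below 0. The log2 ratio of Grhl2 was -0.15 from the median of all genes, and -0.07 without the length trend. Its part in the levels of these targets was not tested. Of the 13 targets, 0 were called higher and 1 lower. Their median of 0.37 was 0.63 above that of all genes. Most of the 13 are also counted in other lists. These are Cdh1, Cldn3, Cldn4 and Lsr (junctions), Prss8, Spint1 and St14 (Epcam partners) and Ovol1 and Ovol2 (other transcription factors). The serine protease gene Prss8 was at 55.3 FPKM for f/f against 95.04 for ed/ed, and the zinc finger factor Ovol2 at 4.07 and 7.47. Rab25, a GTPase of apical recycling, was the one called lower, at 53.8 and 22.3 FPKM. Under the sum and upper quartile scalings and without the length trend, 1 was called lower and 1 higher. Under the median ratio and reference gene scalings 0 were called lower and 3 higher. Over all genes, the median ratio scaling gave 604 of 12268 higher and 387 lower. The reference gene scaling gave 636 of 12277 higher and 365 lower. Grhl1 and Grhl3, the other Grainyhead genes, were below 1 FPKM in both libraries.

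Of 18 other transcription factors of epithelium compared, 2 were called higher and 1 lower, with a median of 0.15. Foxa2, a factor of uterine glands, was at 0.924 FPKM for f/f against 4.40 for ed/ed, and Sox9 at 0.387 and 2.84. These were the 2 called higher, and both passed the filter through ed/ed only. They are also counted among the glandular markers below. Barx2, a homeobox factor, was at 22.4 and 2.19 FPKM, 7.33-fold lower on the scale of FPKM + 1. Msx1, the most abundant, was at 443 and 486 FPKM. The factors that repress epithelial genes in epithelial-mesenchymal transition were lower, with 7 of 7 below 0 (6 of 7 under each other scaling), where 70.4% of all genes were, a median of -0.62, and 0 called. Zeb2 was at 7.29 and 3.94 FPKM, Snai1 at 19.8 and 12.5, and Twist2 at 40.3 and 23.7. Stroma markers summed to 1183 and 595 FPKM, and their part in these values was not tested. Among other intermediate filament genes, Vim, the vimentin of stromal and endothelial cells, was at 349 and 174 FPKM, just within 2-fold on this scale, and Nes was the 1 called of 7, at 7.44 and 2.12.

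The labelled tissue was checked against markers of the cell types a whole uterus can hold. Markers of the stratified epithelium of cervix and vagina were low, with a list sum of 6.94 FPKM for f/f against 5.63 for ed/ed over 15 genes. Listed at 0 in both libraries were 7 of them, Krt5, Krt14, Krt15, Krt4, Krt6a, Krt1 and Dsc3. Krt10 reached 1 FPKM in both libraries and Lor in ed/ed only. Lor, the loricrin of cornified epithelium, was called higher, at 0.745 and 2.51 FPKM. Trp63, the factor of basal cells, was at 0.932 and 0.0706 FPKM. Mesothelium, which also carries Krt8, Krt18 and Krt19, had Msln listed at 0 and at 0.588 FPKM, and only Wt1, shared with stroma, and Upk1b reached 1 FPKM. Of 8 markers of the trophectoderm of blastocysts, Cdx2 and Dppa1 were listed at 0 in both libraries and 4 reached 1 FPKM. These were Fgfr2 at 82.4 and 82.8 FPKM, Elf5 at 3.47 and 4.74, Tfap2c at 1.60 and 1.21 and Eomes at 1.06 and 0.854, with 0 called. The list summed to 89.3 and 90.2 FPKM, most of it from Fgfr2, so that the sum does not stand for the other markers of the list. Of the oviduct list, the cilia factor Foxj1 was at 0.487 FPKM and listed at 0, while Ovgp1 was at 41.0 and 60.8 FPKM.

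Markers of other cell types differed between the libraries as well. Stroma markers had 14 of 14 genes below the median of all genes, 5 called lower and 0 higher, and a list sum of 1183 FPKM for f/f against 595 for ed/ed. Endothelial markers had 11 of 11 below, 7 called lower, with sums of 239 and 112 FPKM, and 2 stromal and 2 endothelial genes were called without the length trend. Under the reference gene scaling 3 of each were called lower. Myometrium markers had 9 of 9 above the median of all genes, 1 called higher (3 under each other scaling), with sums of 622 and 1001 FPKM. Under those scalings 387 to 636 of all genes were called higher, against 326 as deposited. Immune markers had 3 of 10 called higher, with sums of 119 and 244 FPKM, and 1 of the 3, S100a9, passed the filter through ed/ed only. Lyz2 alone held 86.6 and 188 FPKM of these sums, and of the 10 genes 8 had a log2 ratio above 0 and 2 below. The part of these shifts in the levels of the 10 epithelial genes was not tested. In bulk tissue, fewer cells of a type and less RNA per cell cannot be told apart.

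Markers of luminal epithelium had sums of 952 FPKM for f/f against 831 for ed/ed, with 2 of 8 genes called higher, Vtcn1 and Sprr2f, and 0 lower. The calbindin gene Calb1, the most abundant, was at 736 and 431 FPKM, and Sprr2f, an estrogen-induced gene whose reads may be shared with its paralogs, at 21.1 and 153. Without Calb1 the other genes of the list summed to 215 and 400.3 FPKM, so that the direction of the luminal sum rests on Calb1, and with Calb1 it also turned under 3 of the 4 other scalings, to 962 to 1037 FPKM for ed/ed. Much of the higher sum without Calb1 in ed/ed came from Sprr2f. Of the 8 luminal genes compared, 4 had a log2 ratio above 0 and 4 below. Glandular markers had sums of 28.3 and 57.9 FPKM, with 4 of 7 called higher and 1 lower. Spink1 was the most abundant, at 15.7 and 36.0 FPKM, and the others summed to 12.7 and 21.9, while Prss28 and Prss29 were listed at 0 in both libraries. Apart from Spink1, the glandular genes called higher, Foxa2, Sox9 and Wfdc3, were under 1 FPKM in f/f and passed the filter through ed/ed only. Guca2b, the 1 called lower, passed it through f/f only. Over all genes 2.68% were called higher and 6.22% lower.

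**Figure D5:**
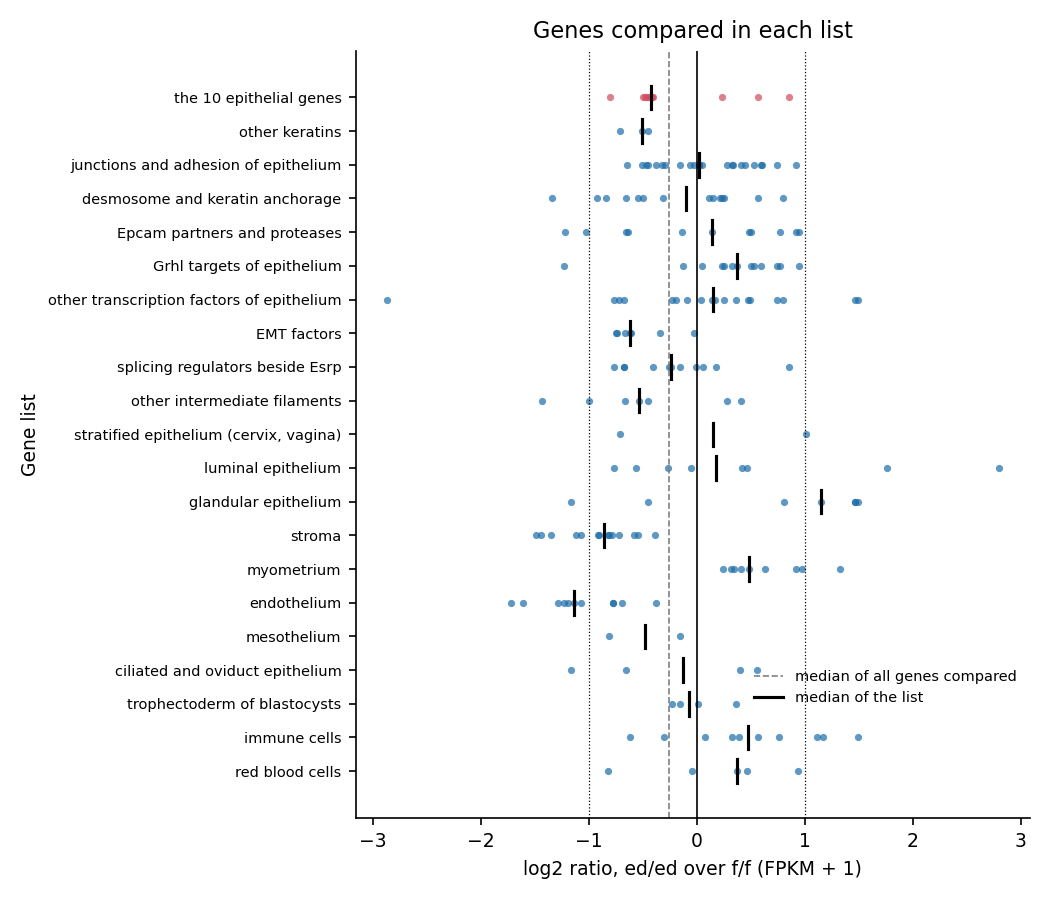
Log2 ratio of ed/ed over f/f for the genes compared in each list (points) with the list median (black bar), the median of all genes compared (dashed) and the 2-fold lines (dotted). The 10 epithelial genes split into 7 below 0 and 3 above, while stroma and endothelium lie wholly below 0 and myometrium wholly above.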

How the data were processed

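Total RNA of whole uterus was extracted with TRIzol and made into libraries with an Illumina TruSeq RNA kit, per the labels' protocols, with 1 library per genotype. The authors deposited 1 value per gene, taken here as FPKM because the submitters' processing notes name Cufflinks 2.2.1, with HISAT2 2.2.1. The header names no unit, the builds mm9 and mm10 are named without a role, and neither the annotation nor the treatment of multi-mapped reads is stated. Coordinates and lengths are from GENCODE M21 on GRCm38 and locate genes, not reads.

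A pseudocount of 1 FPKM was added to both values before the log2 ratio of ed/ed to f/f was taken, genes under 1 FPKM in both libraries were left out, with 2-fold as the rule of size. No p-value was made. The spacing of low FPKM in single-transcript genes longer than 1000 nt, with effective lengths 250 nt shorter than the transcript, gave the depth, and the step was tested on simulated data made with the same effective lengths. Fragment numbers of the members assume the longest coding transcript, and Clopper-Pearson intervals at 95% came from them. For ratios of 2 genes a normal approximation on the log scale was used. Alternatives were a pseudocount of 0.1 or 5 FPKM, a filter at 5 FPKM or none, 1.5-fold as the rule, 4 scalings of ed/ed (sum, median ratio, upper quartile, reference genes) and removal of the length trend by lowess (fraction 0.3).

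The members and lists were chosen with earlier results of these data known. The rule for named genes took all members, Cdh1, Mettl3, and in each list described up to 4 genes with the largest absolute ratio and the most abundant one. Not all of these are printed, and 1 gene of the lists is not reported here and enters none of their counts. Grhl1, Grhl3, Nfatc3 and markers at or near 0 were named, and marker sums without their most abundant gene or under other scalings were taken, after the values were seen. Python 3.11.15, numpy 2.4.6, pandas 2.3.3, scipy 1.17.1 and statsmodels 0.14.6 were used.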

Additional observations from a re-analysis of the deposited data

How the results depend on the processing

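No paired analysis was possible because each genotype has 1 library. Across 50 member values under the 4 scalings and without the length trend the sign turned in 0, and 4 were at least 2-fold, all of Elf3. Pseudocounts, filters and the rule of size cannot turn a sign. The count of members called higher was 1 by the median ratio, upper quartile and reference gene scalings, without the length trend, and under the 1.5-fold rule, which also gave 1 lower. The median log2 ratio of the members was -0.34 by the sum, -0.14 by the median ratio, -0.22 by the upper quartile, -0.12 by the reference genes and -0.13 without the length trend, and the difference from all genes ranged from -0.23 to -0.13 over all settings. Of the 97 related genes, those called higher numbered 2 as reported, 4 with a pseudocount of 0.1, 0 with 5, 0 with a filter at 5 FPKM, 12 at 1.5-fold, 4 by the sum, 9 by the median ratio, 5 by the upper quartile, 9 by the reference genes and 7 without the length trend. Those called lower numbered 3 with a pseudocount of 5, 26 at 1.5-fold and 3 without the length trend. Over all genes, 326 were higher and 757 lower (30.1% higher). By the sum these were 387 and 608 of 12193 genes, and by the median ratio 604 and 387 of 12268. By the upper quartile they were 506 and 466 of 12233, and by the reference genes 636 and 365 of 12277. Without the length trend they were 525 and 347 of 12158. The share higher was 38.9% by the sum, 60.9% by the median ratio, 52.1% by the upper quartile, 63.5% by the reference genes and 60.2% without the length trend, as these settings shift the median of all genes by 0.08 to 0.29. A pseudocount of 0.1 gave 489 and 1336, one of 5 gave 112 and 207, and the 1.5-fold rule 856 and 2850. Of 24 ratios between 2 genes, 0 moved past counting error with a pseudocount of 1. Depth limits Esrp2 most, at an estimated 574 and 368 fragments.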

Other observations

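Letters of the main consensus for N6-methyladenosine, GGACT, were counted on the sense strand of the longest coding transcript of each gene in GENCODE M21. The 10 epithelial genes held 2 (Epcam) to 10 (Esrp2) matches. Per kilobase, 8 of the 10 lay above the median of 1.05 over 12158 genes compared, with 2.83 in Esrp2, 2.78 in Krt18, 2.39 in Elf3, 2.04 in Krt8 and 1.90 in Krt19, against 0.980 in Epcam and 0.733 in Krt7. The median was 1.76 per kilobase for the members, whose GC content was also higher (median 54.4% against 50.2%). Of the 3 genes that were higher in ed/ed, Epcam and Krt7 had the fewest such letters per kilobase and Elf3 was among those with the most. These densities depend on the transcript taken, and other transcripts were not counted. Krt7 had 3 matches in 4094 nt, where Krt18 had 4 in 1437 nt. Methylation was not measured in these libraries, and a match is not a methylated site.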
